A study of Mus musculus with 3 samples.

Results

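The genes described here encode the terminal components of complement and plasma proteins that hold complement in check: Hc, C6, C8a, C8b, C8g and C9, and the regulators Cfi, C4bp and Vtn. They were taken by gene symbol, from probe sets that the platform annotation assigns to a single gene, and all 9 were found among 18193 genes on the array. The probe set with the highest mean over the 3 arrays stood for each gene. Only Vtn had a further one, so that 10 probe sets read the 9 genes. All 9 lay above the filter on dim genes (a mean of 3.77, the 30th percentile) in every liver, so none entered through the group in which it was high.

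Complement is a cascade of plasma proteins, made largely by hepatocytes, that marks and lyses foreign cells. Cleavage of C5, the product of Hc in the mouse, starts the assembly of the membrane attack complex. C6 and C7 join first, the C8 protein (an alpha, a beta and a gamma chain from C8a, C8b and C8g) enters the membrane, and copies of C9 close the pore. Factor I (Cfi) is a protease that inactivates C3b and C4b, C4b-binding protein (C4bp) is one of its cofactors, and vitronectin (Vtn) binds the forming complex in plasma and keeps it out of membranes. HNF4alpha, encoded by Hnf4a, is a nuclear receptor, known in hepatocytes as an activator of genes for secreted proteins.

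Livers of mice on a mixed background were taken at 3 months of age, 1 week after each mouse received 400 microL of adeno-associated virus by 1 injection into the peritoneum. The control virus, MUP-EGFP-AAV8, carries the green fluorescent protein EGFP (n = 2 mice) and the other, MUP-iCre-AAV8, the recombinase iCre, which removes DNA between loxP sites (n = 1 mouse). The labels do not spell out MUP. The series design gives both viruses to HNF4alpha-floxed mice, whereas the sample labels give wild type for the control livers and HNF4alpha knockout for the Cre liver, so virus and genotype cannot be told apart. The whole liver was profiled, including cells that the virus may not have reached, with 1 array of 45101 probe sets per mouse.

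Differences are the Cre liver minus the mean of the 2 control livers in log2 expression (RMA values, which follow probe brightness), with the standard error (SE) of limma's moderated fit. A gene fell or rose where its Benjamini-Hochberg adjusted p over 12735 fitted genes was under 0.05. Since 1 Cre liver has no spread of its own, the fit assumes that it varied as the controls did. An exact permutation test of 1 array against 2 cannot give a p below 0.333. For the targeted gene, all 4 probe sets read below both controls in the Cre liver. The largest difference, on 1421983_s_at, was from 7.69 and 7.72 to 6.52 (-1.18 ± 0.14 SE, limma adjusted p = 0.0323 over 24461 probe sets), and the other 3 lay between -0.67 and -0.55 with limma adjusted p from 0.0598 to 0.196. In the fit of 1 probe set per gene, used for all genes below, Hnf4a was read by its brightest, 1427001_s_at, and fell (-0.55 ± 0.10 SE, limma adjusted p = 0.0401). Where these probe sets lie relative to the deleted DNA was not analysed here, so one outside it would check nothing.

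Of the 9 genes, 7 fell and none rose. The background is that 5.21% of all fitted genes fell and 6.71% rose. The 9 genes were bright in the controls (percentiles 90.8 to 99.3 of fitted genes), and the background shares were not matched for brightness. The 7 were C8a, C8g, Cfi, C4bp, Vtn, C9 and Hc. C8b and C6 did not pass. The median difference of the 9 genes was -1.56, against 0.09 over all fitted genes. At least 2-fold below both controls (1 log2 unit) were 6 of the 9, all those that fell but Hc, where 3.72% of fitted genes were. C8a, C8g and Cfi were also 2 log2 units or more below both, against 1.59% of fitted genes. The Cre liver lay below both controls by any margin in 8 of the 9, as it did in 33.6% of fitted genes. Expression in whole liver cannot tell fewer cells of a type from less RNA per cell.

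**Figure D1:**
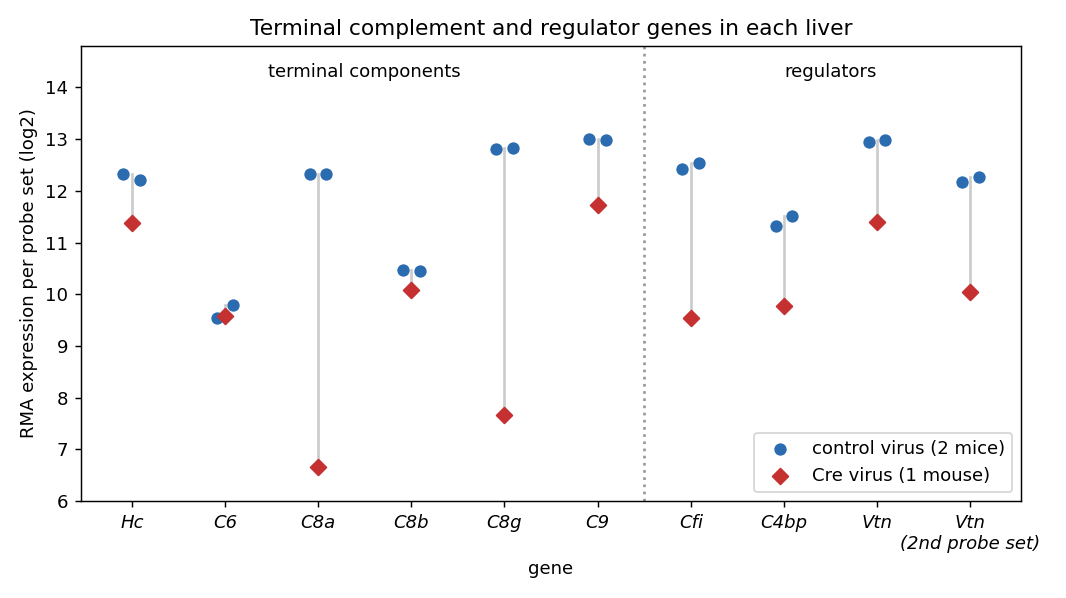
Log2 expression of each gene in each liver, with the control livers as circles and the Cre liver as a diamond, and grey lines spanning the lowest to the highest value. The Cre diamond lies below both circles in 8 of the 9 genes, furthest for C8a (6.67 against 12.33 and 12.32), and between the circles for C6.

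The chains of C8 separated. C8a, whose product carries the alpha chain that inserts into the membrane, was at 12.33 and 12.32 in the control livers and at 6.67 in the Cre liver. The controls lay within 0.0138 of each other and the Cre value far below both. That is a 50.6-fold fall (-5.66 ± 0.11 SE, limma adjusted p = 0.00107). C8g encodes the gamma chain, a lipocalin bound to the alpha chain by a disulfide bond. It read 12.80 and 12.82 in the controls and 7.67 with Cre virus, again with no overlap. It fell 35.3-fold (-5.14 ± 0.10 SE, limma adjusted p = 0.00107). Among all fitted genes ranked from the lowest difference, C8a was number 14 and C8g number 25, and 0.267% of fitted genes were at least 5 log2 units below the control mean. Both Cre values stayed above the filter value of 3.77.

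C8b encodes the beta chain, by which C8 binds the growing complex. Its control values were 10.47 and 10.44, and the Cre liver was at 10.08. The Cre liver was below both controls, by a margin that did not pass (-0.37 ± 0.11 SE, 95% interval -0.66 to -0.08, unadjusted p = 0.0231, limma adjusted p = 0.103). The intervals of C8a (-5.95 to -5.37) and C8g (-5.42 to -4.87) lay wholly below that of C8b, although the difference between the genes was not itself tested. C8a and C8b are next to each other on chromosome 4, with no protein-coding gene between them, and are read from opposite strands. C8g is on chromosome 2.

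To set the promoters of these chains beside their values, the RefSeq windows from 250 bases before to 50 after the start are shown for C8a and C8g, which fell most, and for C8b and C6, which did not pass (GRCm38.p6, each 5′ to 3′ on the strand of the gene). Capitals mark matches, on either strand, to the HNF1 site core GTTAATNA or, with at most 1 mismatch, to CAAAGTCCA, the core of the HNF4 motif. The windows are chr4:104876349-104876648, minus strand, for C8a; chr2:25500457-25500756, minus strand, for the downstream of the starts listed for C8g; chr4:104766067-104766366, plus strand, for C8b; and chr15:4726960-4727259, plus strand, for C6.
C8a: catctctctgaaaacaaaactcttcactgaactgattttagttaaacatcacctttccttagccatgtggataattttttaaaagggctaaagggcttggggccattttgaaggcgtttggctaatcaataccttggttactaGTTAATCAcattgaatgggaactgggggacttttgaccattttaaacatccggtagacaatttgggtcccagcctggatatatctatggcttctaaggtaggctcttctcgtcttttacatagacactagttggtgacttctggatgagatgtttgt
C8g: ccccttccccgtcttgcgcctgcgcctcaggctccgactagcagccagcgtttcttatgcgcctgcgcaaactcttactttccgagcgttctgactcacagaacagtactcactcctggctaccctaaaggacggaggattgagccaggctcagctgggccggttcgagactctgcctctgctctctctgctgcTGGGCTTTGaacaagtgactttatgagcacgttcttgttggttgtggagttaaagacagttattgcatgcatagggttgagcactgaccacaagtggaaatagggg
C8b: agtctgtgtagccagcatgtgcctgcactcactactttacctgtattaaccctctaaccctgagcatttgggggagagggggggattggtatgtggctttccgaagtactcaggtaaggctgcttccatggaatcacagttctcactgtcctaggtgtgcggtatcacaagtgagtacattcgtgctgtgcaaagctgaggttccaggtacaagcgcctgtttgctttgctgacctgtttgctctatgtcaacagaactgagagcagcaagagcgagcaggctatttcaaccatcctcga
C6: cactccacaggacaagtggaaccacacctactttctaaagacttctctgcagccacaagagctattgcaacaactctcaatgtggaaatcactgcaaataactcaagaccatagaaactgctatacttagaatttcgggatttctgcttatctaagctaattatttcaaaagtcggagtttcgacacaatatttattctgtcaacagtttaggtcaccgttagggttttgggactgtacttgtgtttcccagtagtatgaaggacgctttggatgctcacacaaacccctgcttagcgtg

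C8a held GTTAATCA from -107 to -100, counted from its start, and C8g held TGGGCTTTG from -56 to -48, which reads the HNF4 core on the other strand with 1 mismatch. The windows of C8b and C6, the upstream window of C8g, and the window of Vtn, which fell, held neither motif. Of the 8 genes in the promoter table (Cfi had no entry), 3 held the HNF4 core with at most 1 mismatch, namely C8g, C9 (TGGACCTTG, -66 to -58) and C4bp (CAAATTCCA, -191 to -183, and TGGATTTTG, -246 to -238), where 8.47% of 32851 windows did. None held it exactly, as 0.475% of windows did. The HNF1 site core was in Hc (TAATTAAC, -76 to -69), C8a and C4bp (GTTAATCA, -64 to -57), 3 of 8 genes, against 2.54% of windows. CAAAGGTCA, the end of a nuclear receptor direct repeat, was in none of the 8 with at most 1 mismatch (8.43% of windows). The C/EBP core TTGCNNAA was in C9 (10.8% of windows) and the STAT motif TTCNNNGAA in C8a and Vtn (8.3%). Motifs were searched on both strands; the STAT motif reads the same on each, and matches to different motifs did not overlap in these windows. A match describes letters in a short window and shows no binding.

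Of the other terminal components, Hc and C9 fell and C6 did not pass. Hc read 12.32 and 12.20 with control virus and 11.37 with Cre virus, below both. It fell 1.86-fold (-0.89 ± 0.10 SE, limma adjusted p = 0.018). C9, the pore-forming component, was at 13.00 and 12.98 in the controls against 11.73. It fell 2.40-fold (-1.26 ± 0.09 SE, limma adjusted p = 0.00569), with no overlap between the groups. C6, the first protein to join C5b, read 9.55 and 9.80 with control virus and 9.57 with Cre virus. The Cre value thus lay between the controls (-0.10 ± 0.15 SE, limma adjusted p = 0.699). The 95% interval of the fit, from -0.52 to 0.32, did not reach a 2-fold change in either direction. It rests on 1 Cre liver assumed to vary as the controls did, so it cannot exclude such a change. C6 and C9 lie near each other on chromosome 15, with 8 protein-coding genes between them, C7 among them. C7 was not analysed here.

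**Figure D2:**
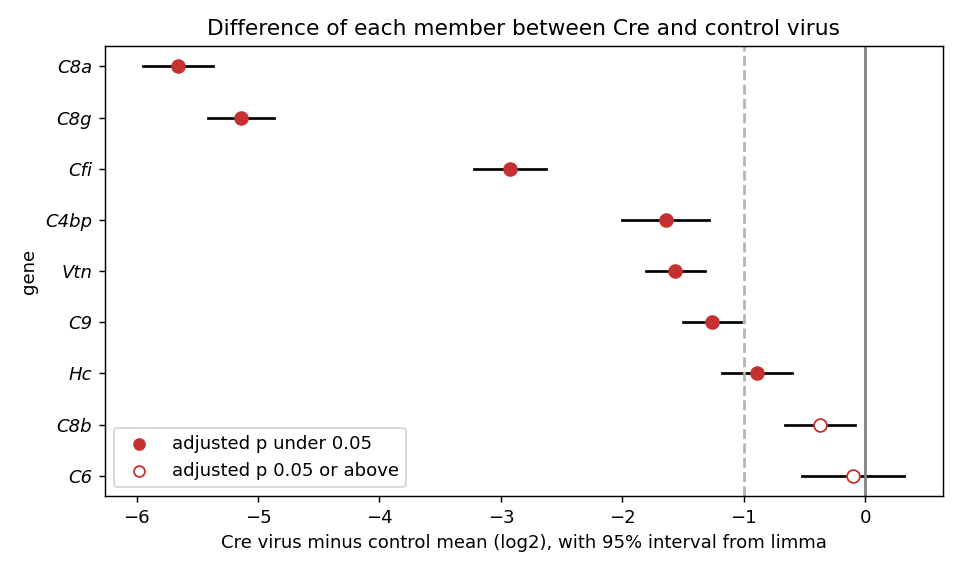
Log2 difference of each gene between the Cre liver and the control mean, with lines for the 95% interval of limma's fit; filled points passed an adjusted p of 0.05 and the dashed line marks a 2-fold fall. C8a and C8g lie beyond -5, Cfi near -3, C4bp, Vtn, C9 and Hc between -1.64 and -0.89, and C8b and C6 are open points nearest to 0.

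All 3 regulators fell. Cfi read 12.42 and 12.54 with control virus against 9.55 with Cre virus, so the groups did not overlap. It fell 7.61-fold (-2.93 ± 0.11 SE, limma adjusted p = 0.00142), the third largest difference of the 9. C4bp was at 11.32 and 11.52 in the controls against 9.78. This 3.13-fold fall (-1.64 ± 0.13 SE, limma adjusted p = 0.0081) was large beside the control gap of 0.20. Vtn, which also acts as an adhesion protein of the matrix, was at 12.95 and 12.98 in the controls against 11.40 on the probe set with the highest mean. It fell 2.96-fold there (-1.56 ± 0.09 SE, limma adjusted p = 0.00331). The other Vtn probe set, 1455098_a_at, was at 12.17 and 12.28 against 10.05, and fell 4.53-fold (-2.18 ± 0.10 SE, limma adjusted p = 0.00588 over 24461 probe sets). Both Vtn probe sets thus placed the Cre liver below both controls, with different sizes.

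**Figure D3:**
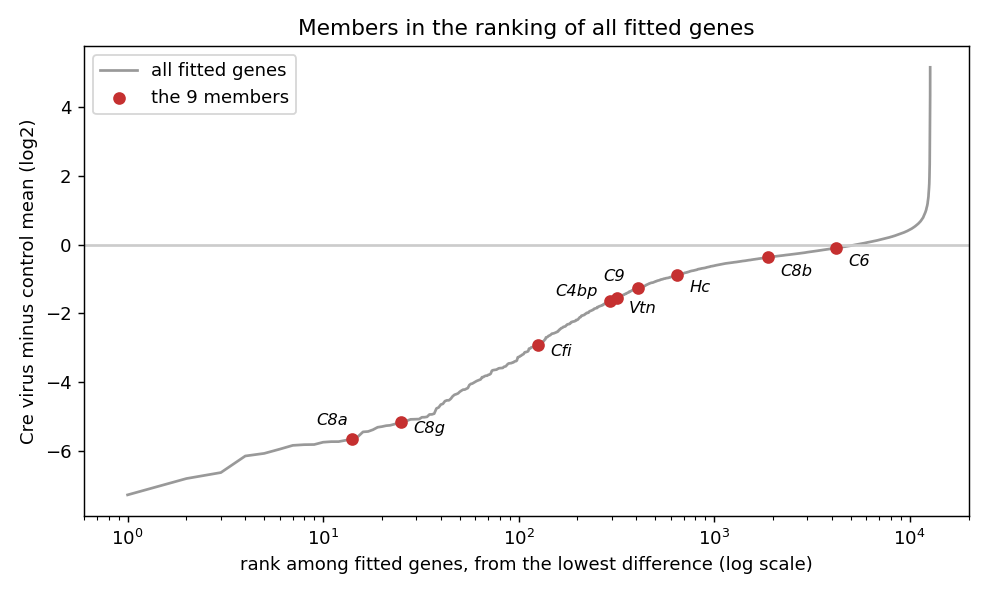
All 12735 fitted genes ranked by their difference between the Cre liver and the control mean (x axis, log scale; y axis, log2), with the 9 genes as red points. C8a and C8g are among the 34 genes at or below -5, and C6 is at rank 4203.

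The fitted genes outside every list used here whose centred profile over the 3 arrays was closest to that of C8a were Sult1b1, Bdh1, Slc17a3, Glyat and Ces2e, at Euclidean distances between 0.0673 and 0.194 log2 units. Sult1b1 encodes a sulfotransferase, Bdh1 the dehydrogenase of 3-hydroxybutyrate, Slc17a3 an anion transporter, Glyat an acyltransferase that uses glycine and Ces2e a carboxylesterase. Their differences ran from -5.81 to -5.44. Values near that of C8a (-5.66) follow from the choice by closeness of profile and are no separate result. In the Cre liver Sult1b1 (2.61) and Ces2e (3.72) were below the filter value of 3.77.

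The rest of the complement system was read from a list of activation genes, regulators and receptors. Of 50 other complement genes listed, 36 had a single-gene probe set and 32 were fitted; 8 of these fell and none rose, with a median of -0.17. C3, the protein on which all routes converge, Cfd, C4a and C4b were not analysed here. The genes that fell were made up of 4 of the lectin pathway, 2 of the classical, 1 of the alternative and 1 other plasma regulator. None of 4 membrane regulators and none of 4 receptors passed.

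In the lectin pathway, which recognises sugars on microbes, the mannose-binding lectin gene Mbl2 read 12.52 and 12.64 with control virus and 8.998 with Cre virus (-3.58 ± 0.11 SE, limma adjusted p = 0.0011). Mbl1 (-0.96) and the protease gene Masp2 (-0.65) also fell. Masp1, encoding the other protease, fell by 2.58 on its brightest probe set, while the 4 that passed the filter ranged from -2.58 to -0.17. In the classical pathway the proteases C1s1 (-1.33 ± 0.11 SE) and C1ra (-0.97 ± 0.11 SE) fell. The subunits of the recognition protein C1q, which macrophages make, were C1qa at 0.70, C1qb at 0.70 and C1qc at 0.47, without passing. Cfb, factor B of the alternative pathway, fell (-1.21 ± 0.11 SE, limma adjusted p = 0.0097). Cfp, which stabilises the convertase of that pathway, was at 0.76 (limma adjusted p = 0.0578) and at 0.11 on its other probe set.

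Other plasma regulators mostly did not pass, among them Cd5l (0.96), Cfhr2 (-0.60, and -0.11 on its other probe set) and Cfhr3 (-0.56). Cfhr3 was dim, at most 4.53 in any liver. The control values of Cd5l were 7.97 and 8.81. Cd5l and the receptor gene Vsig4 are also among the Kupffer cell and macrophage markers below. Cpn2, the regulatory subunit of the carboxypeptidase that trims anaphylatoxins, went from 11.36 and 11.55 in the controls to 8.03 in the Cre liver (-3.42 ± 0.13 SE, limma adjusted p = 0.00151). Cpn1, the catalytic subunit of that enzyme, was at 9.85 and 9.86 against 9.87 (0.02 ± 0.11 SE, limma adjusted p = 0.915; 0.37 on its other probe set). The Cpn1 value was above both controls by less than 0.03, and the difference between Cpn2 and Cpn1 was not tested. Clu, clusterin, which like vitronectin blocks the terminal complex in plasma, was at 0.37 ± 0.11 SE without passing (limma adjusted p = 0.119). Serping1, the C1 inhibitor, was at -0.26 ± 0.09 SE without passing (limma adjusted p = 0.155). On cell membranes Cd59a, the inhibitor of C9 assembly, was at -0.11, Cr1l at 0.15 and Cd55 at 0.44, and none of them passed. Of the 4 fitted receptors, none of which passed, Vsig4 was at 0.86, Itgb2 at 0.69, Itgax at -0.32 and C3ar1 at -0.65 (limma adjusted p = 0.0902). Itgb2, Itgax and C3ar1 were dim, at most 4.73 in any liver.

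**Figure D4:**
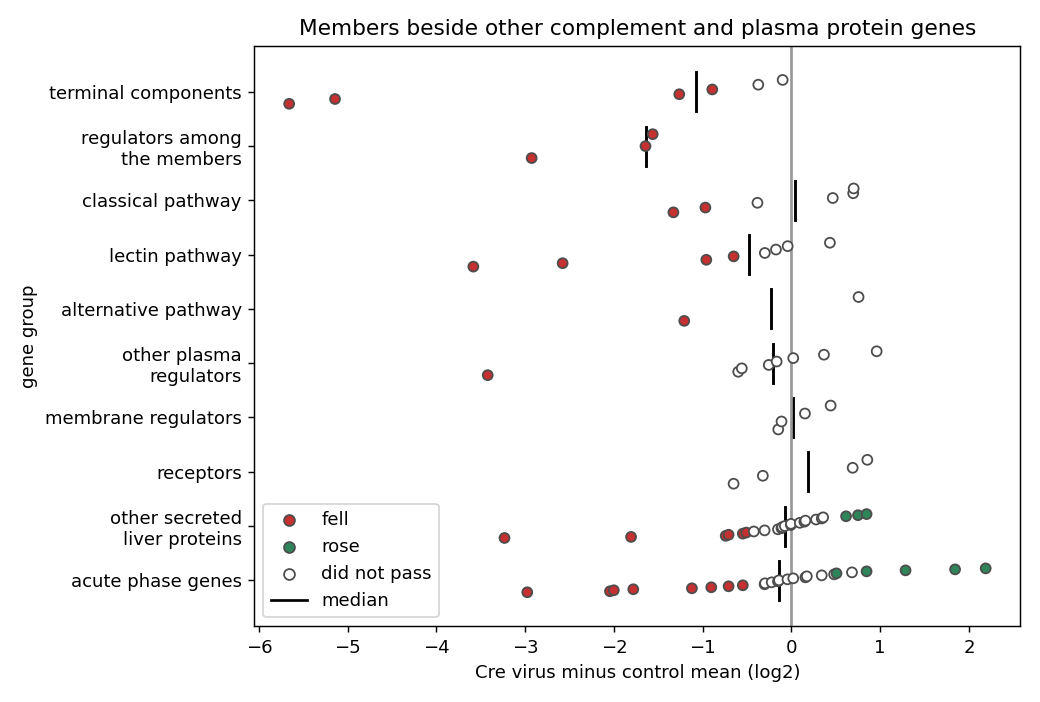
Differences between the Cre liver and the control mean (log2) for every fitted gene of each group, red where it fell, green where it rose and open where it did not pass, with a black bar at the group's median. The terminal components reach -5.66, and the medians of the terminal components (-1.08) and their regulators (-1.64) lie below those of the other groups, which run from -0.48 to 0.18.

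Other secreted proteins of the liver went both ways. Of 23 fitted, 6 fell and 3 rose, with a median of -0.07. Mug1, a murinoglobulin protease inhibitor, fell by 3.23 and Apoa2 by 1.81, whereas Hp (0.85), Fetub (0.75) and Itih2 (0.62) rose. Alb, the albumin gene, read 14.75 and 14.72 with control virus and 14.62 with Cre virus, without passing (-0.11 ± 0.07 SE). Of 25 acute phase genes, 7 of them also in that list, 8 fell and 5 rose, with a median of -0.14. Among them Saa1 (-2.98, and -2.50 on its other probe set) and Crp (-2.04) fell, and Orm3 (2.19) and Socs3 (1.84) rose. The 3 probe sets of Socs3 ranged from 0.60 to 1.84.

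Defining hepatocyte markers were bright in every liver: the lowest value among the 8 fitted was 10.17 (Apob in the Cre liver). Of these 8, 3 fell and none rose. Those that fell were Apob (-2.96, and -1.67 on its other probe set), Tat (-1.02) and Pck1 (-0.73). Pck1 was at -1.86 on its other probe set past the filter and at -0.12 on one below it. Ttr, which did not pass, ranged from -0.91 to -0.10 over its 4 probe sets. Summed over the 8 on the linear scale, their signal was 138000 and 135000 with control virus and 126000 with Cre virus. The brightest genes weigh most in such a sum. Of 8 Kupffer cell and macrophage markers, 1 rose (Marco, on one of its probe sets at 1.88 and on the other at -0.34), and their summed linear signal was 919 and 1400 with control virus and 1780 with Cre virus. Bile duct markers summed to 57.4 and 70.7 against 149, with 1 of 2 fitted (Sox9) higher. Sox9 went from 3.87 and 4.82 to 6.69 on its brightest probe set (2.35), whereas Epcam was at 0.28 without passing. The other Sox9 probe set past the filter was at 1.10, and one below it at 0.43. Krt19 (3.72 and 3.79 against 3.59) and Krt7 (3.34 and 3.13 against 3.26) were below the filter. The larger sum thus came mainly from the brightest Sox9 probe set. The stellate sums were 2450 and 2610 against 3200, the endothelial ones 1020 and 1130 against 1120, those of T and B cells 98.7 and 104 against 122, and those of neutrophils 52.7 and 47.3 against 48.0. None of the fitted genes of these 4 lists passed. The lowest value of any probe set on the 3 arrays was 1.59, so no marker could be listed at 0. The part of any cell type in the falls of the complement genes was not tested.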

How the data were processed

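Total RNA from 3 livers (2 control virus, 1 Cre virus), extracted with Trizol and labelled with biotin per the labels' protocols, was read on 1 array each. The authors deposited RMA values on a log2 scale, 1 for each probe set; the submitters' processing notes name Partek 6.5. The base of the log was taken as 2 from the range of the deposited values. RMA equalises the distributions of the arrays, which hides a shift shared by all genes, and compresses differences of dim and very bright probe sets. The labels call the controls biological replicates.

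Of the probe sets, 34945 named 1 gene, and 932 named several and were left out. Symbols were updated through Entrez IDs with a RefSeq table of GRCm38.p6. The brightest probe set per gene was kept, and the 12735 genes whose mean reached the 30th percentile entered limma 3.58.1 in R 4.3.3 (lmFit, eBayes with trend), with 1 residual and 3.18 prior degrees of freedom and two-sided p-values. The fit was also run on simulated data whose Cre array was given the spread of the controls. That run therefore cannot check the assumption of equal spread. The members, the lists and the alternatives were chosen with earlier results of these data known. Genes named outside the 9 were picked by size of change, by closeness of profile to C8a or for what they encode. Genes of a list with larger differences can thus go unnamed. A second call needed no test (1 log2 unit outside both controls). Alternatives covered moderation, filters, scaling, probe set choice, thresholds and each control left out. Promoter windows are RefSeq's; protein sequences were not used here.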

Additional observations from a re-analysis of the deposited data

How the results depend on the processing

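All 7 genes that fell (C8a, C8g, Cfi, C4bp, Vtn, C9 and Hc) kept direction and call under every alternative of moderation, filter, scaling and probe set that gave them a test, with limma adjusted p up to 0.00322 for C8a and up to 0.0478 for Hc. C8b (limma adjusted p from 0.082 to 0.176) and C6 (from 0.604 to 0.761) passed under none. At a threshold of 0.01, 6 of the 9 genes fell, without Hc. With 1 control left out no test is possible, and all 7 stayed below the remaining control. C6 was at -0.22 without control replicate 1 and at 0.03 without control replicate 2. C8b, C8g and Vtn have no value without probe sets ending in _s_at, _x_at or _a_at. The median of the 9 genes became -1.64 with each gene's probe sets averaged and that of the 6 genes left without those suffixes was -1.45. At a limit of 2 log2 units 3 of the 9 and 202 of all genes were below both controls.

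Counts over all genes moved more. Without a filter 446 rose, and 471 without the suffixes; 1007 fell after quantile normalization. At thresholds of 0.01 and 0.1, 92 and 1780 rose and 255 and 1003 fell. For other complement genes 1 rose with probe sets averaged, after median centring, after quantile normalization and at 0.1, and 5 fell at 0.01. For other secreted proteins 1 rose without the trend, without a filter and without the suffixes, 0 at 0.01 and 5 at 0.1; 2 fell without the trend and at 0.01, and 3 without the suffixes. For acute phase genes 5 fell without the trend, and 3 fell and 0 rose at 0.01. Hnf4a on 1421983_s_at was at -1.18 without a filter (limma adjusted p = 0.0624), and on 1427001_s_at it passed at -0.55 with a 50th percentile filter and with robust moderation, at -0.54 after median centring and at -0.59 after quantile normalization. The cause of these shifts was not tested. No paired analysis was possible because there was 1 Cre mouse and the labels give no pairs. With 1 Cre array, its own spread is unknown.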
